A study of Homo sapiens with 4 samples.

Results

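The expression of 10 genes of nuclear hormone signalling was followed after exposure of SK-N-SH, a human neuroblastoma cell line, to the dioxin TCDD. They are the nuclear receptors RARB, RXRG, THRB, PPARG, NR3C1, NR3C2, ESRRG and NR2F1 and the coactivators PPARGC1A and NCOA1, and were chosen by function among the genes of chromosomes 1 to 5. Each of the 10 was represented by 1 feature of the array table annotated with that symbol alone, among 6574 genes with such a feature. The exposed group received TCDD at 1e-10 M for 24 h in dimethyl sulfoxide (DMSO), and the control group the solvent alone. Each group had 2 arrays, which the titles call biological replicates of this 1 cell line. No label says whether they came from separate cultures, so p-values rest on the spread between arrays. For each gene that spread was moderated in the limma fit with the spread of all features. The values are log2 signals of the Affymetrix Human Transcriptome Array, and the number of arrays limits their precision.

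Nuclear receptors are transcription factors that carry a zinc-finger domain for binding DNA and, in most members, a pocket for a lipophilic hormone or metabolite. Many of them, among them the retinoic acid, thyroid hormone and PPAR receptors, bind DNA as partners of an RXR, while the steroid receptors act mainly as homodimers. Ligand binding exchanges corepressor complexes for coactivators such as NCOA1 and PPARGC1A. In neuroblastoma cells retinoic acid is known to drive neuronal differentiation, and induction of RARB is a classical part of that response. TCDD binds the aryl hydrocarbon receptor (AhR), which belongs to another family, and the AhR complex recognises a DNA core of GCGTG.

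The DNA before the transcription starts of 3 of these genes is shown for the elements through which retinoic acid or AhR could reach them. Sequences are those of RefSeq for GRCh38.p14, and all 10 genes matched by symbol with 39 start-site windows, each of 250 bases before and 50 bases after a start. The 250 bases before a start are printed 5′ to 3′ on the gene's strand. RARB (chr3:25428013-25428262, plus strand) is shown because 1 of its 4 windows holds a direct repeat. Retinoic acid receptors are known to act on RARB through it, and the letters searched are in capitals. RXRG (chr1:165445127-165445376, minus strand) is shown because its signal differed most between the groups, and NR3C1 (chr5:143403687-143403936, minus strand) because it had the largest positive difference in the deposited values, with GCGTG or its reverse complement CACGC in capitals.
RARB: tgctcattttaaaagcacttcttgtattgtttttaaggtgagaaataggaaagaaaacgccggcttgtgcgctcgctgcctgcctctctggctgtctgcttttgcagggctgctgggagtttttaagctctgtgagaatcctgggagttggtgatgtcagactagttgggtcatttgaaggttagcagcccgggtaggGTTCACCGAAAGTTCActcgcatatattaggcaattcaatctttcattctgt
RXRG: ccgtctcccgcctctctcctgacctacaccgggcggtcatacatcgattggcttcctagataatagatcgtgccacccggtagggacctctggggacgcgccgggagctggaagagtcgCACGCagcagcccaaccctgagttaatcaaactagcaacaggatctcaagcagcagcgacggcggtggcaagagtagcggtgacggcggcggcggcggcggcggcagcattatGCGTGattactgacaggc
NR3C1: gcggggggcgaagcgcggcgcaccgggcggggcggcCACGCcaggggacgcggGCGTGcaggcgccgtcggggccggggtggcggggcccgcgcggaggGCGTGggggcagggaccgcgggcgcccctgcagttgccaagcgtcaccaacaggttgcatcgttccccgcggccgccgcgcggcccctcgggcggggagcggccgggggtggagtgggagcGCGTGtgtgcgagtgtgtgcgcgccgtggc

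The RARB repeat was searched on both strands as GTTCA, any 6 bases and GTTCA again. The capitals mark the match of this pattern and not the bounds of the whole element. The match begins 52 bases before the start. The letters searched were taken from this known RARB element, so the match in RARB was fixed in advance. No other window of the 10 genes holds these letters, and 0.057% of the 35116 windows of all genes do. Other letters or spacings were not searched, so this does not show that the other genes lack retinoic acid elements. The core GCGTG, on either strand, was found in 17 of the 39 windows (43.6%), against 36.5% of all windows. It lies in at least 1 window of each gene except NCOA1, and in at least 1 window of 40.6% of 27305 genes. Those genes share 35116 windows, so the 10 genes, with 39, have more windows each in which to match. The RXRG window printed here holds 2 matches. The NR3C1 window was picked for its number of matches and holds 4 of the 10 found, which lie in 4 of its 7 windows. The longer TNGCGTG, whose matches are all also matches of the core, was found in 5 of the 39 windows (12.8%) and in 5.51% of all, in windows of NR3C1, NR2F1 and ESRRG. A match is a description of letters and not a bound site, and these arrays measured no binding.

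None of the 10 genes changed by limma at an adjusted p under 0.05. Over all 13493 features 17.4% were called at that threshold, 9.41% higher and 8.01% lower in TCDD, and 11.1% of the 5229 protein-coding features were. At an unadjusted p under 0.05 only RXRG passed among the 10, against 39.5% of all features. The TCDD and DMSO arrays did not overlap for 7 of the 10 genes, 4 with TCDD higher and 3 with TCDD lower, and the same held for 71.7% of all features (40.7% higher and 30.9% lower) and for 76.9% of protein-coding ones. The share among the 10 genes is thus near that of the table. With 2 arrays against 2, an exact two-sided permutation test of a gene cannot go below p = 0.333, so single genes were judged by the limma fit across all features. Differences are TCDD minus DMSO on the log2 scale, with moderated standard errors of 0.050 to 0.060 for these genes. Their median was 0.0076, against 0.023 over all features, and the median size was 0.067 against 0.12. The widest 95% interval bound of any of the 10 genes was 0.293 in size, which is 1.23-fold, each interval being taken singly.

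**Figure D1:**
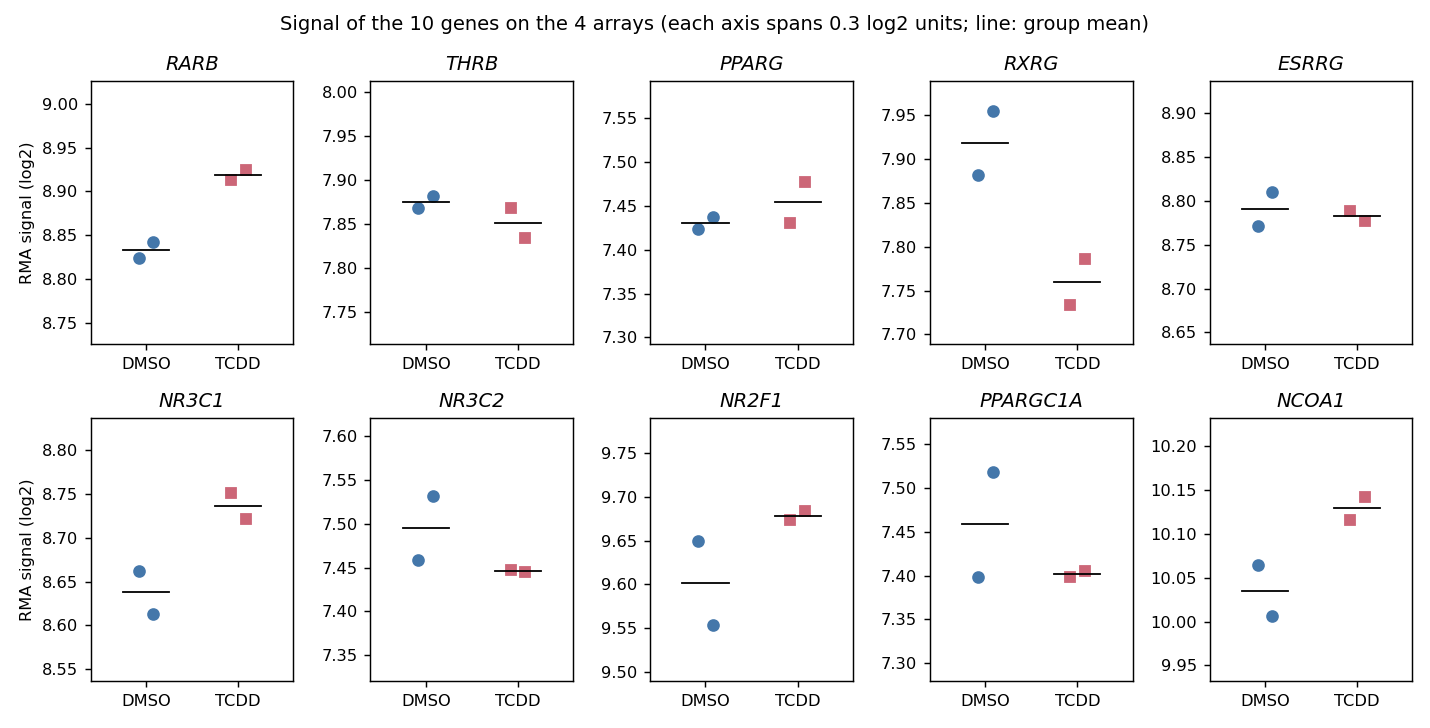
RMA signal (log2) of the 10 genes on the 2 DMSO arrays (circles) and the 2 TCDD arrays (squares), with the group mean as a line and every vertical axis spanning the same width. RXRG has the widest gap between groups, from 7.88 and 7.95 to 7.73 and 7.79, while PPARG, ESRRG and PPARGC1A overlap.

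The 2 retinoid receptors differed in opposite directions, and neither difference passed the test. RXRG, which encodes the gamma form of the common heterodimer partner, read 7.88 and 7.95 on the DMSO arrays and 7.73 and 7.79 on the TCDD arrays. Both TCDD arrays lay below both DMSO arrays. The means were 7.92 ± 0.052 in DMSO and 7.76 ± 0.037 in TCDD (SD, n = 2 each). The RXRG difference was -0.16 (SE 0.056, 95% interval -0.29 to -0.024, limma adjusted p = 0.090), or 0.896 times the DMSO level. This exceeded in size the differences of 63.2% of all features. RXRG was called when DMSO replicate 1 was left out, at -0.20 (limma adjusted p = 0.049), the only call among the 10 genes in any of the 4 omissions. In that omission 34.5% of all features were called, a larger share than 1 of 10. The share was 4.77% without DMSO replicate 2, 8.43% without TCDD replicate 1 and 12.1% without TCDD replicate 2.

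RARB, the retinoic acid receptor beta whose promoter carries the repeat printed above, read 8.82 and 8.84 in DMSO and 8.91 and 8.92 in TCDD. The groups did not overlap, and the arrays of each group lay closer to each other than the groups did. The difference was 0.085 (SE 0.050, 95% interval -0.035 to 0.21, limma adjusted p = 0.240), or 1.06-fold. This moderated SE draws on the spread of all features, beyond the RARB SDs of 0.013 in DMSO and 0.0077 in TCDD. Leaving out any 1 array gave 0.077 to 0.094. After cyclic loess, a normalization that removes signal-dependent differences between arrays, the RARB difference was 0.029.

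THRB and PPARG, receptors for thyroid hormone and for fatty acid derivatives that pair with an RXR, gave small differences of opposite sign in the deposited values. THRB read 7.8682 and 7.8813 in DMSO and 7.8681 and 7.8340 in TCDD. Its groups were separated only in the fourth decimal. The THRB difference was -0.024 (SE 0.050, 95% interval -0.15 to 0.098, limma adjusted p = 0.743), and 0.012 after cyclic loess.

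PPARG, the regulator of adipocyte differentiation, read 7.42 and 7.44 in DMSO and 7.43 and 7.48 in TCDD. The groups overlapped, since TCDD replicate 1 lay between the DMSO arrays. The PPARG difference was 0.023 (SE 0.051, 95% interval -0.10 to 0.15, limma adjusted p = 0.75). It came from TCDD replicate 2, without which it was 0.00019, and it was 0.079 after cyclic loess, next in size to RXRG among the 10 genes under that normalization.

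NR3C1 and NR3C2, the glucocorticoid and mineralocorticoid receptors, are close relatives that share cortisol as a ligand. NR3C1 read 8.66 and 8.61 in DMSO and 8.75 and 8.72 in TCDD. Both TCDD arrays lay above both DMSO arrays, by a difference of 0.098 (SE 0.052, 95% interval -0.028 to 0.22, limma adjusted p = 0.204), or 1.07-fold. It was positive in each of the 4 omissions, at 0.074 to 0.12, and 0.061 after cyclic loess.

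NR3C2 read 7.46 and 7.53 in DMSO and 7.45 and 7.45 in TCDD. The TCDD arrays lay just under DMSO replicate 1, and DMSO replicate 2 stood above the other 3 arrays. The NR3C2 difference was -0.049 (SE 0.054, 95% interval -0.18 to 0.081, limma adjusted p = 0.514). It was -0.012 without DMSO replicate 2 and 0.0058 after cyclic loess.

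ESRRG and NR2F1 are orphan receptors, that is, receptors with no accepted natural hormone. ESRRG, an estrogen-related receptor that works with PPARGC1A on genes of oxidative metabolism, read 8.77 and 8.81 in DMSO and 8.79 and 8.78 in TCDD. Both TCDD arrays fell between the DMSO arrays, and the difference of -0.0083 (SE 0.051, 95% interval -0.13 to 0.11, limma adjusted p = 0.913) exceeded in size those of 3.50% of features. The ESRRG difference was -0.056 after cyclic loess and -0.031 under quantile normalization. NR2F1, also called COUP-TF1, a regulator of neural development and a known target of retinoic acid, read 9.65 and 9.55 in DMSO and 9.67 and 9.68 in TCDD. TCDD lay above DMSO, but DMSO replicate 1 was nearer to the TCDD arrays than to DMSO replicate 2. The NR2F1 difference was 0.077 (SE 0.056, 95% interval -0.060 to 0.21, limma adjusted p = 0.337). It was 0.029 without DMSO replicate 2, 0.13 without DMSO replicate 1, and -0.034 after cyclic loess.

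The coactivators gave small differences of opposite sign. PPARGC1A, which encodes PGC-1 alpha, the inducer of mitochondrial biogenesis, read 7.40 and 7.52 in DMSO and 7.40 and 7.40 in TCDD. DMSO replicate 2 stood above the other 3 arrays, and the groups overlapped because DMSO replicate 1 (7.3988) lay between the TCDD arrays (7.3980 and 7.4049). The PPARGC1A difference was -0.057 (SE 0.060, 95% interval -0.20 to 0.088, limma adjusted p = 0.496), and 0.0027 without DMSO replicate 2.

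NCOA1, the steroid receptor coactivator SRC-1, read 10.06 and 10.01 in DMSO and 10.12 and 10.14 in TCDD. The groups did not overlap, and the difference was 0.094 (SE 0.053, 95% interval -0.033 to 0.22, limma adjusted p = 0.224), or 1.07-fold. It was positive in each of the 4 omissions, at 0.065 to 0.12, but -0.030 after cyclic loess and -0.039 under quantile normalization.

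**Figure D2:**
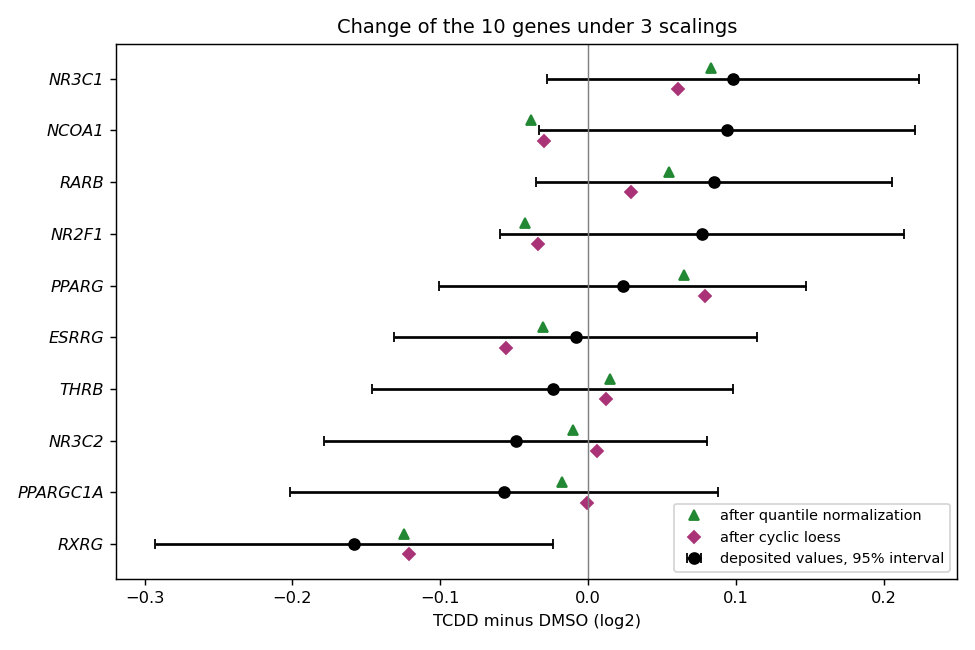
Difference TCDD minus DMSO (log2) of the 10 genes from the deposited values (circles, with 95% intervals) and after quantile normalization (triangles) or cyclic loess (diamonds). The RXRG interval is the only one of the 10 that excludes 0, and NR2F1 and NCOA1 lie above 0 in the deposited values and below 0 after either normalization.

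The direction of these differences went with the brightness of the feature. A reference level was taken from 70 olfactory receptor genes, which few cells outside the nasal epithelium use: 95% of them had a mean signal under 8.39. Features differ in their probes, so this level is only a rough mark and signals of different genes were not ranked. RARB, ESRRG, NR3C1, NR2F1 and NCOA1 lay above it, and 4 of these 5 had a positive difference. RXRG, THRB, PPARG, NR3C2 and PPARGC1A lay below it, and 4 of these 5 had a negative one.

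The same split ran through the protein-coding features of the table. Across all features mean signal and difference correlated at 0.251, and at -0.021 after cyclic loess. Protein-coding features at or above the level had a median difference of 0.11, and 82.3% of these 3551 were positive. Their TCDD arrays lay above DMSO without overlap for 68.3% and below for 11.2%. Protein-coding features under the level had a median of -0.053, with 32.8% of the 1678 positive. Among these, 21.4% lay above DMSO without overlap and 50.1% below. After cyclic loess the medians were 0.0084 and -0.0052. Of the 10 genes, THRB, NR3C2, NR2F1 and NCOA1 then changed sign, while RXRG remained at -0.12 (limma adjusted p = 0.117) and no gene was called. Interquartile ranges were 2.13 and 2.00 on the DMSO arrays, and 2.21 and 2.20 on the TCDD arrays, and the part of this wider spread in the differences of single genes was not tested.

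**Figure D3:**
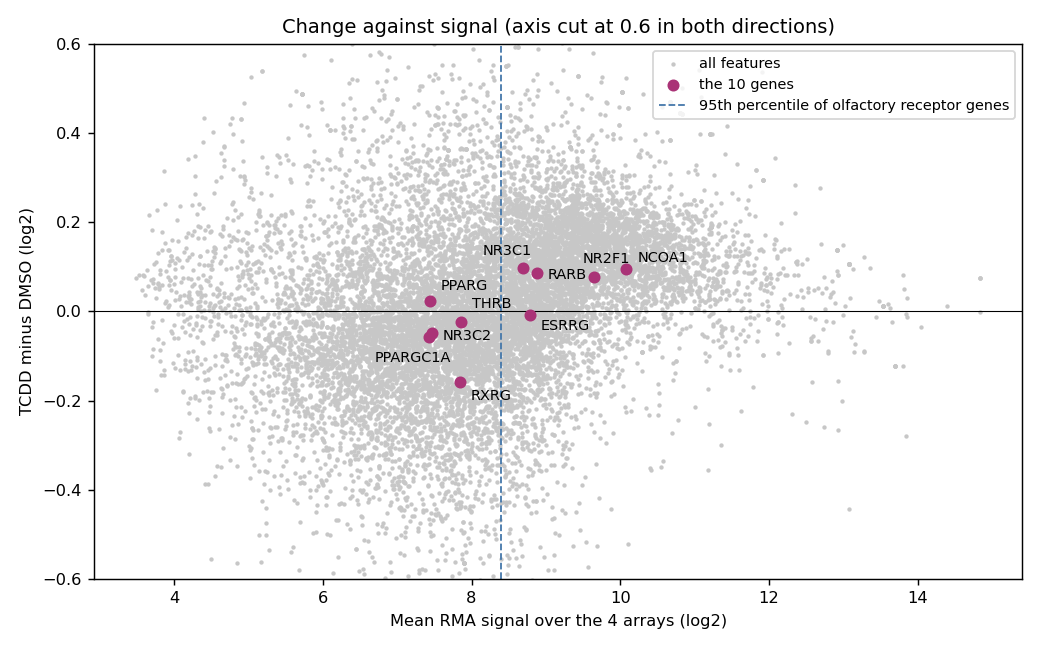
Difference TCDD minus DMSO (log2) against mean RMA signal over the 4 arrays (log2) for all 13493 features (grey) and the 10 genes (labelled), with the level of 8.39 under which 95% of olfactory receptor genes lay as a dashed line. Protein-coding features had a median difference of 0.11 at or above the line and -0.053 below it. The 10 genes lie within the cloud of all features.

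Of the 48 human nuclear receptors 14 were measured by a feature with 1 symbol, 6 of them outside the 10 genes. Limma called 0 of these 6 (17.4% over all features, 11.1% over protein-coding ones), although 4 had an unadjusted p under 0.05 (39.5% over all features). NR0B2, or SHP, an orphan receptor without a DNA-binding domain that represses other receptors, read 8.49 on both DMSO arrays and 8.35 and 8.32 on the TCDD arrays. Its difference of -0.16 (SE 0.050, limma adjusted p = 0.071) remained after cyclic loess at -0.17, where it was called (limma adjusted p = 0.047, against a background of 14% of all features). Quantile normalization gave -0.16 for NR0B2 (limma adjusted p = 0.058). With any 1 array left out it lay between -0.17 and -0.15 and was not called.

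NR4A2, or NURR1, a receptor needed for dopamine neurons, differed by -0.15 (SE 0.051, limma adjusted p = 0.082). NR1I3, the xenobiotic receptor CAR, differed by -0.13 (SE 0.056, limma adjusted p = 0.132). NR1D2, the clock repressor REV-ERB beta, read 10.37 and 10.28 in DMSO and 10.50 and 10.49 in TCDD, a difference of 0.17 (SE 0.055, limma adjusted p = 0.077). NR2C2, the testicular receptor TR4, also differed by 0.17 (SE 0.055, limma adjusted p = 0.079). After cyclic loess NR1D2 and NR2C2 differed by 0.044 and 0.041. NR5A2, or LRH-1, differed by -0.026 (SE 0.051). NR4A2 and NR5A2 lay under the olfactory level. Without DMSO replicate 1, 3 of the 6 were called, against 34.5% of all features.

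Of 27 listed coregulators 13 were measured and limma called 0 (17.4% over all features, 11.1% over protein-coding ones). Their median difference was 0.073, and 1 gene had an unadjusted p under 0.05 (39.5% over all features). That gene was HDAC3, the deacetylase of the NCOR corepressor complex, which read 10.12 and 9.96 in DMSO and 10.27 and 10.32 in TCDD. Its difference was 0.25 (SE 0.068, 95% interval 0.089 to 0.42, limma adjusted p = 0.051). Cyclic loess lowered it to 0.13 (limma adjusted p = 0.140). Differences were 0.13 for DCAF6, 0.11 for the deacetylase HDAC1, 0.11 for the corepressor subunit TBL1XR1, 0.089 for the methyltransferase NSD1 and 0.067 for the demethylase KDM1A. CITED4 (0.083), LCORL (0.073), SRA1 (0.040), PNRC2 (-0.0047) and HDAC4 (-0.033) had differences smaller than their standard errors. PPARGC1B, the relative of PPARGC1A, read 8.31 and 8.26 in DMSO and 8.19 and 8.21 in TCDD, all under the olfactory level. Its difference was -0.088 (SE 0.052, limma adjusted p = 0.246). PRDM16, a cofactor of brown fat, differed by -0.081 (SE 0.050). Without DMSO replicate 1, 3 of the 13 were called, against 34.5% of all features, and after cyclic loess the median was -0.021.

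**Figure D4:**
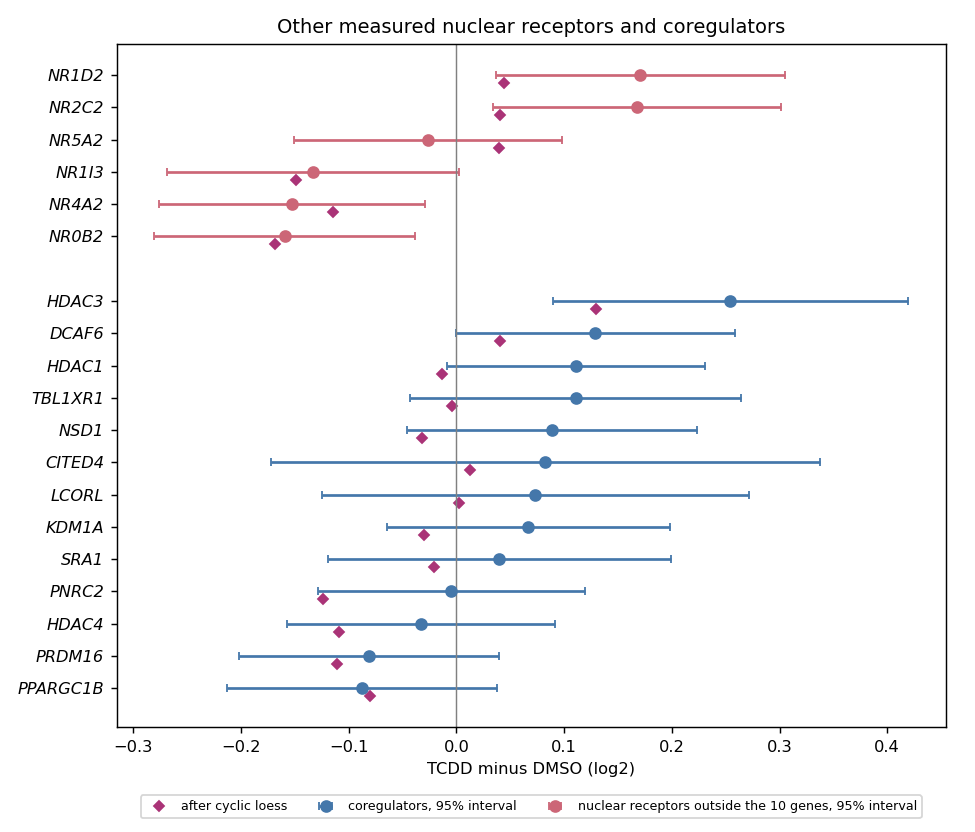
Difference TCDD minus DMSO (log2) with 95% intervals for the 6 other measured nuclear receptors and the 13 measured coregulators, with the value after cyclic loess as a diamond. NR0B2 keeps its value of -0.16 near -0.17 after cyclic loess, while NR1D2, NR2C2 and HDAC3 move toward 0.

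Genes of the pathways served by these receptors were described from 5 lists. Those measured were all protein-coding, and 11.1% of protein-coding features were called in either direction. Of 29 genes of retinoid metabolism and retinoic acid response 16 were measured, with a median difference of -0.039. Limma called 0 of them (17.4% over all features), and 3 had an unadjusted p under 0.05 (39.5% over all features). LRAT, which esterifies retinol, differed by -0.15 (SE 0.051), the alcohol dehydrogenase ADH1A by -0.17 (SE 0.067), and DHRS3, a retinaldehyde reductase induced by retinoic acid, by 0.13 (SE 0.051), with limma adjusted p = 0.087, 0.111 and 0.111. DHRS3 read 8.80 and 8.84 in DMSO and 8.95 and 8.95 in TCDD. It lay higher without overlap, as did 68.3% of protein-coding features at or above the olfactory level. After cyclic loess DHRS3 differed by 0.074. Of the 16 genes 4 had a positive difference and 12 a negative one. Under the olfactory level lay 11 of the 16, LRAT and ADH1A among them, where protein-coding features had a median of -0.053. Leaving out DMSO replicate 1 gave 2 calls among the 16 (34.5% over all features), and the median after cyclic loess was -0.033.

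Of 15 genes of thyroid hormone metabolism and response 3 were measured. Limma called 0 of them, and 0 had an unadjusted p under 0.05 (17.4% and 39.5% over all features). Differences were 0.077 for the thyrotropin subunit TSHB, -0.038 for the deiodinase DIO1 and -0.047 for thyrotropin-releasing hormone, TRH. All 3 overlapped between the groups, and TSHB and DIO1 lay under the olfactory level.

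Of 25 genes of steroid response and steroid metabolism 15 were measured, with a median difference of 0.051. Among the 15, 1 was called and rose, against 17.4% of all features called in either direction. HSD11B1, the enzyme that regenerates cortisol, the ligand of NR3C1, read 8.66 and 8.55 in DMSO and 8.83 and 8.84 in TCDD. Both TCDD arrays lay above both DMSO arrays, and the rise was 0.23 (SE 0.058, 95% interval 0.091 to 0.37, limma adjusted p = 0.044), or 1.17-fold. It was not called after cyclic loess (0.19, limma adjusted p = 0.057) or quantile normalization (0.22, limma adjusted p = 0.062), nor when TCDD replicate 1 (0.24), TCDD replicate 2 (0.22) or DMSO replicate 2 (0.18) was omitted. SRD5A1, a steroid 5-alpha-reductase, differed by 0.25 (SE 0.069, limma adjusted p = 0.054), and HSD17B7, an enzyme of estradiol and cholesterol synthesis, by 0.14 (SE 0.052, limma adjusted p = 0.099). Leaving out DMSO replicate 1 gave 3 calls among the 15 (34.5% over all features). After cyclic loess the median of the list was 0.0072, and SRD5A1 differed by 0.14.

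Of 24 PPAR target and fatty acid oxidation genes 14 were measured, with a median difference of 0.097. Among the 14, 1 was called and fell, against 17.4% of all features called in either direction. FABP3, a cytosolic fatty acid carrier, read 8.31 and 8.37 in DMSO and 8.00 and 8.09 in TCDD, all under the olfactory level. The groups did not overlap, and FABP3 fell by 0.29 (SE 0.059, 95% interval -0.43 to -0.15, limma adjusted p = 0.026), to 0.816 times the DMSO level. It stayed called after cyclic loess (-0.28, limma adjusted p = 0.036) and quantile normalization (-0.28, limma adjusted p = 0.043), where 14% and 11% of all features were called. The call was lost without DMSO replicate 2 (-0.26, limma adjusted p = 0.084) and TCDD replicate 1 (-0.25, limma adjusted p = 0.200). CPT2, which releases imported fatty acids in mitochondria, differed by 0.15 (SE 0.063), and HADHA, a subunit of the trifunctional protein of beta oxidation, by 0.12 (SE 0.051), with limma adjusted p = 0.133 and 0.136. Leaving out DMSO replicate 1 gave 3 calls among the 14 (34.5% over all features). After cyclic loess the median of the list was 0.023, CPT2 differed by 0.081 and HADHA by 0.025.

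Of 20 genes known as PPARGC1A partners or mitochondrial targets 9 were measured, and PPARGC1A itself differed by -0.057. Among the 9, 2 were called and rose, against 9.41% of all features called higher and 11.1% of protein-coding features called in either direction. All 9 had a positive difference, with a median of 0.19 against 0.11 for protein-coding features of bright signal, where all 9 lay. COX5B, a subunit of cytochrome c oxidase, rose by 0.27 (SE 0.061, limma adjusted p = 0.036) and NDUFS4, a subunit of complex I, by 0.24 (SE 0.055, limma adjusted p = 0.037). TFB2M, a mitochondrial transcription factor, differed by 0.22 (SE 0.066, limma adjusted p = 0.063). After cyclic loess the median of the 9 was 0.068 and 0 were called, and COX5B and NDUFS4 both differed by 0.14. Without DMSO replicate 1, where 34.5% of all features were called, 7 of the 9 were, and 0 were with any other array left out.

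**Figure D5:**
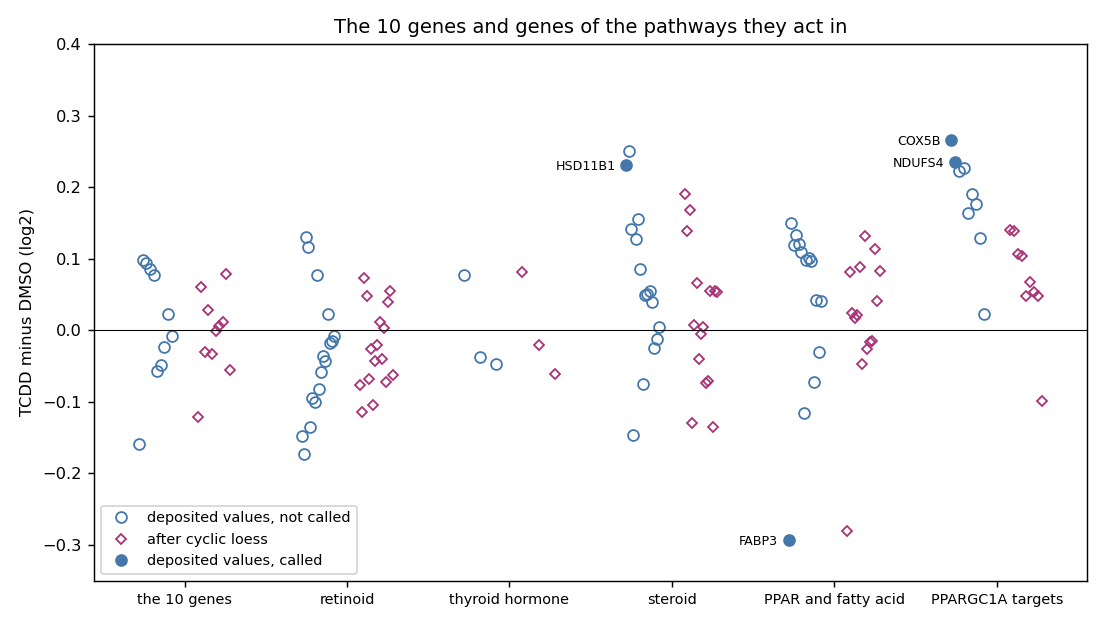
Difference TCDD minus DMSO (log2) of the 10 genes and of the measured genes in 5 pathway lists, from the deposited values (circles, filled where limma called the gene) and after cyclic loess (open diamonds). The 4 called genes are HSD11B1, FABP3, COX5B and NDUFS4, and none of the 10 genes is among them.

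The surroundings of the genes in the genome were also read. NR1D2, THRB and RARB follow each other on chromosome 3 in the RefSeq order of protein-coding genes, and their differences were 0.17, -0.024 and 0.085. Of the 20 nearest protein-coding positions beside the 10 genes 16 were measured, 14 of them by genes outside the 10. Limma called 1 of the 14, against 17.4% of all features. LRRC52, a subunit of potassium channels that lies next to RXRG, read 7.39 and 7.59 in DMSO and 7.18 and 7.16 in TCDD. These values are all under the olfactory level. It fell by 0.33 (SE 0.074, limma adjusted p = 0.036). The LRRC52 call was lost when DMSO replicate 2 (-0.23, limma adjusted p = 0.064) or TCDD replicate 2 (-0.32, limma adjusted p = 0.051) was omitted. The other 13 differed by -0.099 (LMX1A, on the other side of RXRG) to 0.23 (GPATCH2, beside ESRRG). Between these lay NR1D2, NGLY1, SYN2, ARHGAP26, HMHB1, ARHGAP10, ARRDC3, ADGRA3, DHX15, ITSN2 and PTRHD1. Of 10 listed antisense and intronic RNAs named after these genes 2 were measured. NR2F1-AS1 differed by 0.14 (SE 0.058, limma adjusted p = 0.133), also 0.14 after cyclic loess, where NR2F1 was negative. THRB-AS1 differed by -0.070 (SE 0.054, limma adjusted p = 0.357).

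Over the 4 arrays, the genes whose centred values lay closest to those of RXRG were TMEM212, TECRL and ZNF385B, at Euclidean distances of 0.0050, 0.0086 and 0.013 log2 units. Their differences were -0.15, -0.16 and -0.15, and 142 of 6573 genes lay within 0.05 of RXRG.

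The arrays of a group correlated at 0.997 in DMSO and 0.999 in TCDD across features, and arrays of different groups at 0.989 to 0.994. As a reading of the exposure, outside the rule for named genes, the AhR target CYP1B1 had 2 features that disagreed, with differences of 0.24 (limma adjusted p = 0.033) and -0.012 (limma adjusted p = 0.888), and the AhR target TIPARP differed by 0.028 (limma adjusted p = 0.745). Among the 10 genes the TCDD arrays differed by 0.023 on average and the DMSO arrays by 0.055. The TCDD pair was the closer for 8 of the 10. Across all features the SD of the difference within a pair was likewise smaller in TCDD, at 0.0855 against 0.132 in DMSO. Of the markers of neuroblasts, 6 of 11 were measured, and all 6 lay above the olfactory level, among them HAND2, GATA2, ISL1 and ALK. In TCDD 4 of the 6 were higher without overlap and 1, MYCN, was lower. HAND1 was called higher at 0.22 (limma adjusted p = 0.049), but differed by 0.095 after cyclic loess (limma adjusted p = 0.153). Log2 signals of the 6 summed to 65.4 and 64.8 in DMSO and 65.6 and 65.6 in TCDD. The 4 measured of 8 mesenchymal markers also lay above it and were higher in TCDD without overlap, 3 of them called, with sums of 39.95 and 39.90 in DMSO and 40.7 and 40.8 in TCDD. Of 9 immune-cell markers 8 were measured, 5 of them under that level, and all 8 were lower in TCDD without overlap, 2 of them called. Their log2 signals summed to 61.4 and 61.8 in DMSO and to 60.4 and 60.6 in TCDD. FOXD3 and GFRA3, measured out of 7 markers of glia and Schwann cells, were also lower without overlap, with sums of 17.2 and 17.0 in DMSO and 16.8 and 16.7 in TCDD, and neither was called. The 2 measured of 6 endothelial markers (sums of 14.6 and 14.8 in DMSO and 14.6 and 14.6 in TCDD) and the 2 measured of 5 epithelial markers (15.7 on all 4 arrays) gave no call and lay under the level. Of all protein-coding features at or above the level, 68.3% were higher in TCDD without overlap and 11.2% lower. Under it 21.4% were higher and 50.1% lower, and limma called 17.4% of all features. After cyclic loess 0 of 6 neuroblast, 1 of 4 mesenchymal and 3 of 8 immune markers were called, and 14% of all features. The part of the markers in the differences of the 10 genes was not tested. The arrays hold bulk RNA of 1 cell line, and which cell types were present was not measured. In bulk RNA fewer cells of a type and less RNA per cell cannot be told apart. The calls among neuroblast, mesenchymal and immune markers were lost with either TCDD array or DMSO replicate 2 left out, and without DMSO replicate 1 they numbered 3, 3 and 4.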

How the data were processed

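The authors deposited log2 signals, for which the submitters' processing notes name RMA. Settings of RMA, the summary level and the genome build are not given in the sources used here. The deposited table was used as given. Its 13493 features carry identifiers of chromosomes 1 to 5, and no other chromosome was analysed here. Symbols were taken from the platform's annotation and updated with the RefSeq gene table of GRCh38.p14. Of all features 6647 then had 1 symbol, 341 had several and 6505 had none.

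The 2 TCDD arrays were compared with the 2 DMSO arrays by lmFit and eBayes of limma 3.58.1 (R 4.3.3), with no block. The fit had 2 residual degrees of freedom and a prior worth 4.27. Two-sided p-values received the Benjamini-Hochberg adjustment across the whole table, with calls made under 0.05. In lists, the brightest feature with 1 symbol stood for a gene. The fit was tested on simulated data.

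Alternatives were a replicate block, quantile, cyclic loess and median scaling, array weights, a trended and robust prior, removal of the dimmest 50% of features, features with 1 symbol only, and each array left out in turn. Same-numbered arrays deviated with a correlation of 0.037 across features.

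The 10 genes and all lists were chosen with earlier results of these data known. Every measured receptor and coregulator is named, and of other lists the called genes and up to 3 with the smallest p. Marker lists are given by their counts, with some members as examples. The genes nearest in pattern are the 3 with the smallest Euclidean distance. Promoter sequences are RefSeq's.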

Additional observations from a re-analysis of the deposited data

How the results depend on the processing

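No gene of the 10 was called under any setting except RXRG without DMSO replicate 1, so the count of called genes among them ran from 0 to 1 with each array left out in turn. The count over all features, 2351, was 1478 under quantile normalization and ran from 644 without DMSO replicate 2 to 4661 without DMSO replicate 1, with 1138 without TCDD replicate 1 and 1626 without TCDD replicate 2. With the replicate number as a block it was 3634, which changed no call among the 10 genes. The median difference of the 10 genes, 0.0076, was -0.014 under quantile normalization, and 0.085 without the dimmest 50% of features, which left 5 of the 10 genes. Directions turned for THRB (0.015), NR2F1 (-0.043) and NCOA1 (-0.039) under quantile normalization. They turned for THRB (0.012), NR3C2 (0.0058), NR2F1 (-0.034) and NCOA1 (-0.030) after cyclic loess, and for ESRRG (0.0020) after median centring. With each array left out in turn ESRRG ran from -0.028 to 0.011 and PPARGC1A from -0.12 to 0.0027, both positive only without DMSO replicate 2. RXRG, NR3C1, RARB and PPARG kept their direction in each of the 12 alternatives that kept their feature. With 1 array left in a group, it was assumed to vary like those of the other group. The cause of the turns was not tested.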
